A study of Mus musculus with 6 samples.

Results

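The GIMAP genes (GTPases of immunity-associated proteins) encode a family of GTP-binding proteins found mainly in lymphocytes. The family was examined through its 8 mouse members, Gimap1, Gimap3, Gimap4, Gimap5, Gimap6, Gimap7, Gimap8 and Gimap9. They were taken by gene name from a table of 54532 genes, and all 8 were present and passed the filter on low values (at least 0.5 FPKM on average), as did 15874 genes in all. FPKM, the deposited unit, is the number of fragments on a gene divided by the gene's length and by a factor for the size of the library. RNA had been sequenced from T cells kept together with ID8, a mouse ovarian cancer line that had been pretreated either with 40 µM cisplatin (3 libraries, called cisplatin below) or with PBS (3 libraries, called control). The T cells of both groups were isolated from the spleens of C57BL/6 mice with a pan T-cell kit, kept with IL-2 and activated before the co-culture with anti-CD3 and anti-CD28 beads. The drug was thus given to the tumour cells beforehand, and the labels do not say whether the libraries of a group came from separate mice, so p-values measure the spread between these libraries, which may be technical.

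GIMAP proteins share a GTP-binding domain of the AIG1 type, and several of them sit on membranes inside the cell. They are best known for keeping resting lymphocytes alive: loss of Gimap5 depletes peripheral T cells in rats and mice, and Gimap1 is needed for the survival of mature T and B cells. Their transcripts are abundant in resting T cells and fall when T cells are activated.

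The members lie together on chromosome 6, from 48647234 to 48770851 of GRCm38, a span of 123.6 kb, with 6 genes on the plus strand and 2, Gimap6 and Gimap3, on the minus strand. Their longest annotated coding sequences, without the stop codon, ran from 873 bases (Gimap9) to 984 bases (Gimap4) in 7 of the members. That of Gimap8, a protein known for its repeated GTP-binding domains, was 2064 bases. In pairwise alignments of these coding sequences, Gimap3 and Gimap5 were identical at 90.4% of 895 aligned bases, and the other 27 pairs at 55.7% to 66.6%. From the GENCODE M21 transcripts, the longest stretch shared by Gimap3 and Gimap5 transcripts is shown because reads that fall wholly inside it cannot be assigned to either gene by sequence. It holds 140 bases, lies within the coding sequence of both, at chr6:48765681-48765820 on the minus strand in Gimap3 and at chr6:48752684-48752823 on the plus strand in Gimap5, and reads as follows.
Gimap3 and Gimap5: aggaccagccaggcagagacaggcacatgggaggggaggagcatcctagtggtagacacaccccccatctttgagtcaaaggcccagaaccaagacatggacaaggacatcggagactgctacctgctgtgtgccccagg
Of all 100-base stretches in the transcripts of Gimap3, 1.65% also occurred in another gene, and the share was 2.26% for Gimap5 and 3.17% for Gimap1. It was 0% for Gimap4, Gimap6, Gimap7, Gimap8 and Gimap9. The matches of Gimap1, and part of those of Gimap5, were to Gm28053, a gene model that runs from Gimap7 to Gimap5 and overlaps exons of Gimap7, Gimap1 and Gimap5. Gimap1 also overlaps Gimap1os on the opposite strand over 36.0% of its exon bases. Whether reads were counted by strand is not given in the sources used here, so reads inside that overlap could not be told apart.

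The promoters of Gimap3 and Gimap4, the members that changed most, and of Gimap7, the member that changed least, are shown as RefSeq gives them for GRCm38.p6, from 250 bases before to 50 bases after the annotated start. Capitals mark letters matching a RUNX (TGTGGT), TCF/LEF (CTTTGA) or FOXO (GTAAACA) motif on either strand.
Gimap3, chr6:48770802-48771101, minus strand: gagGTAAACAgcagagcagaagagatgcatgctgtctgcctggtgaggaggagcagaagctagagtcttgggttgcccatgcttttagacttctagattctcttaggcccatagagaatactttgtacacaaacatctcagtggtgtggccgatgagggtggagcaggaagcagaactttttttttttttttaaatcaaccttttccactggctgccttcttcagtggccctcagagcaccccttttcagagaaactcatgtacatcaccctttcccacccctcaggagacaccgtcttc
Gimap4, chr6:48684328-48684627, plus strand: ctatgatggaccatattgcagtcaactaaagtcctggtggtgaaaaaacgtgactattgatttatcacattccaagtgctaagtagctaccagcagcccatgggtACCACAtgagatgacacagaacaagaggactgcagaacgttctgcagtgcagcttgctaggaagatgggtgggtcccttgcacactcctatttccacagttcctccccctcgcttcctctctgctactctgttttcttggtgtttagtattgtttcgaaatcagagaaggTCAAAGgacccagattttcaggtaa
Gimap7, chr6:48718371-48718670, plus strand: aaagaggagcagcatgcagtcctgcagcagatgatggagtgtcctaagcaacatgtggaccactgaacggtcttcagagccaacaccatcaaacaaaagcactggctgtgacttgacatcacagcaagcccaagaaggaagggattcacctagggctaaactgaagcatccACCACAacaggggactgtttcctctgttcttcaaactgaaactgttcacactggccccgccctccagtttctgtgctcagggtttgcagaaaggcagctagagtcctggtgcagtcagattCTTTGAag
RefSeq gave 9 promoters for the 8 members, 2 of them overlapping starts of Gimap8. The RUNX letters were present in 3 of the 9 (Gimap1, Gimap4 and Gimap7) and in 16.8% of all 32851 promoters of the same length. The TCF/LEF letters were in 2 of 9 (Gimap4 and Gimap7) against 16% of all promoters, and the FOXO letters in 1 of 9 (Gimap3) against 3.65%. A KLF motif (CACCC, not marked) was in 6 of 9 against 57.5%. The letters CCGGAA of an ETS motif and AGATAA of a GATA motif, present in 14.9% and 11.2% of all promoters, were in none of the 9. Other forms of these motifs were not searched. These letter matches are descriptions of the windows. Gimap4, which rose by 0.88 on the log2 scale, and Gimap7, which rose by 0.44, both held the RUNX and the TCF/LEF letters.

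The family was abundant in every library. Its summed level was 1530, 1523 and 1525 FPKM in the cisplatin libraries and 884, 860.1 and 903 FPKM in the control libraries. The lowest cisplatin library was thus well above the highest control library. In reads rebuilt from the FPKM and the gene length, the 8 genes together took 0.390% ± 0.00449 (SD, n = 3) of the reads on genes with cisplatin and 0.216% ± 0.0052 (SD, n = 3) in control. In the order of mean FPKM over the table, Gimap4 stood at place 66 and Gimap3 at place 79, and the least abundant member, Gimap5, at place 3528. The order of the 8 members was the same in both groups (Gimap4, Gimap3, Gimap6, Gimap1, Gimap7, Gimap8, Gimap9, Gimap5), and no 2 neighbours in it overlapped between their libraries. The libraries held 30606569 to 32169496 reads on genes, and the members 1511 (Gimap9 in a control library) to 41867 (Gimap3 in a cisplatin library).

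**Figure D1:**
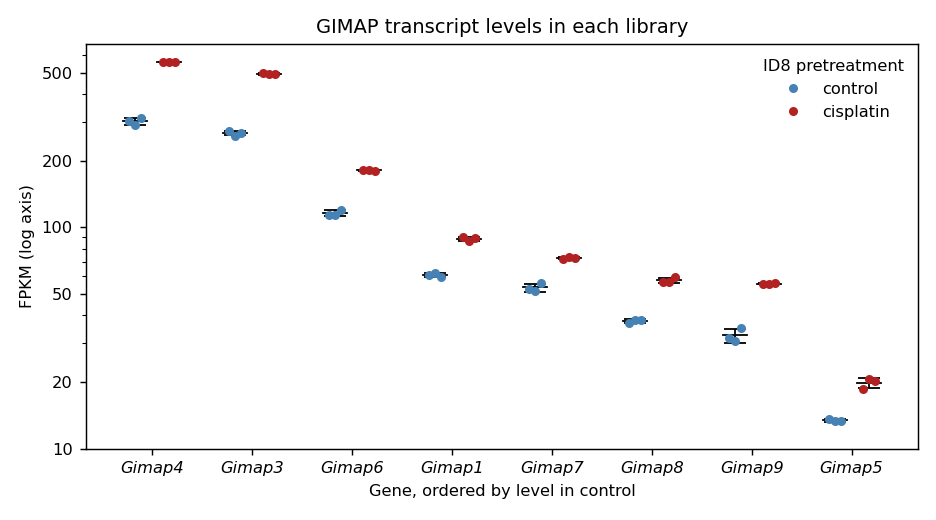
Level of each GIMAP gene in FPKM (log axis) in the 3 control and 3 cisplatin libraries. Points are libraries, and horizontal bars and whiskers are the mean and SD. For every member all cisplatin points lie above all control points, from Gimap4 (about 302 and 557 FPKM on average) down to Gimap5 (13.4 and 19.9 FPKM).

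All 8 members were higher with cisplatin-pretreated ID8 cells in limma on log2(FPKM + 0.1). Their p-values, after Benjamini-Hochberg adjustment over the whole table of tested genes, were 1.26e-06 to 8.42e-05, and the threshold was 0.05. Of the 15874 genes tested, 27.5% were higher and 29.0% lower past this threshold, and for 31.9% the 3 cisplatin libraries all lay above the 3 control libraries, as they did for each of the 8 members. The log2 fold changes ran from 0.44 to 0.89, with a median of 0.62, against a median of 0.03 over all genes tested. No member reached the 2-fold change that the study asked for beside the p-value, neither in this limma fit nor with limma's voom on the rebuilt reads, although 8 of 8 had an unadjusted p under 0.05, as did 9694 of the 15874 genes tested. A rise of at least 2-fold was called for 4.11% of the genes tested. Tumour-cell transcripts fell between the same groups, and values relative to T-cell genes are given further on. In bulk RNA of this kind, a change in the number of cells of a type cannot be told apart from a change in the RNA of each cell.

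Among the members linked to lymphocyte survival are Gimap5, Gimap3 and Gimap1. Gimap5 (ENSMUSG00000043505, chromosome 6 from 48746197 to 48754210), which acts at lysosomal membranes and keeps naive T cells alive, had 18.7, 20.7 and 20.3 FPKM in the cisplatin libraries and 13.6, 13.4 and 13.3 FPKM in the control libraries. The groups did not overlap, and the cisplatin libraries were the more spread (19.9 ± 1.07 against 13.4 ± 0.172 FPKM, SD, n = 3 each). The log2 fold change was 0.56 (SE 0.05, limma adjusted p = 8.42e-05).
Gimap3 (ENSMUSG00000039264, 48764464 to 48770851), the close relative of Gimap5 and a partner of BCL2 family proteins, was far more abundant. It had 498, 490.2 and 490.1 FPKM with cisplatin and 272, 259 and 267 FPKM in control, 493 ± 4.73 against 266 ± 6.48 FPKM (SD, n = 3 each). Its log2 fold change of 0.89 (SE 0.03, limma adjusted p = 1.26e-06) was the highest of the family, a 1.85-fold difference of the means. These close relatives thus differed in change as well as in level. The 95% interval of the log2 fold change was 0.81 to 0.96 for Gimap3 and 0.45 to 0.68 for Gimap5.
Gimap1 (ENSMUSG00000090019, 48739054 to 48743795), required for the survival of mature lymphocytes, had 90.3, 86.8 and 89.7 FPKM with cisplatin and 60.8, 62.1 and 59.9 FPKM in control. The groups were separate, with 88.9 ± 1.83 and 60.9 ± 1.10 FPKM (SD, n = 3 each). Its log2 fold change was 0.54 (SE 0.03, limma adjusted p = 9.94e-06).

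Gimap4 (ENSMUSG00000054435, 48684549 to 48692060), which is known to speed the death of T cells, was the most abundant member. It had 558, 557 and 557 FPKM in the cisplatin libraries, which were nearly equal, and 302, 291 and 313 FPKM in the control libraries. The means were 557 ± 0.756 and 302 ± 11.0 FPKM (SD, n = 3 each), and the log2 fold change was 0.88 (SE 0.04, limma adjusted p = 2.39e-06). Gimap4, linked to T-cell death, and Gimap3, which binds BCL2 family proteins, therefore changed by much the same amount.

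Gimap6 and Gimap7 form a further pair, since their proteins bind each other and Gimap6 also binds GABARAPL2 of the autophagy machinery. Gimap6 (ENSMUSG00000047867, 48701582 to 48708225) had 181, 182 and 179.6 FPKM with cisplatin and 114, 114 and 120.2 FPKM in control (log2 fold change 0.64, SE 0.03, limma adjusted p = 6.13e-06). Gimap7 (ENSMUSG00000043931, 48718621 to 48724636) had 71.6, 73.6 and 73.0 FPKM with cisplatin and 52.7, 51.7 and 56.0 FPKM in control. The control libraries of Gimap7 spanned more than its cisplatin libraries, and the groups were still apart. Its log2 fold change of 0.44 (SE 0.04, limma adjusted p = 8.02e-05) was the lowest of the family, and its 95% interval of 0.35 to 0.53 lay below that of Gimap6, 0.56 to 0.72.

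Gimap8 (ENSMUSG00000064262, 48647234 to 48660875), the member with the longest coding sequence, had 56.4, 56.8 and 59.5 FPKM with cisplatin and 36.9, 38.0 and 38.3 FPKM in control, a log2 fold change of 0.61 (SE 0.03, limma adjusted p = 1.09e-05). Gimap9 (ENSMUSG00000051124, 48676129 to 48679114), the neighbour of Gimap8, had 55.6, 55.7 and 55.9 FPKM with cisplatin and 31.6, 30.7 and 35.2 FPKM in control. Its control libraries were the most scattered of the family, with a coefficient of variation of 7.39%, and the log2 fold change was 0.78 (SE 0.05, limma adjusted p = 2.95e-05). The lowest level of Gimap9 with cisplatin was still well above the highest in control.

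Because the members are lymphocyte genes, their change was set against that of T-cell genes in the same libraries. Of 26 T-cell identity genes (T-cell receptor and CD3 chains, CD4, CD8 and proximal signalling proteins), 25 were higher and 1, Themis, was lower past the limma threshold. Their median log2 fold change was 0.60, beside 0.62 for the GIMAP family, and Themis, a regulator of T-cell receptor signalling, had -0.60. The summed level of the list was 2970 to 3058 FPKM with cisplatin and 1871 to 2004 FPKM in control. All 26 genes were detected, so the defining markers of the labelled cell type were present.
Markers of other cells were present too. The 10 B-cell markers summed to 3607 to 3684 FPKM with cisplatin and 1676 to 1760 FPKM in control, most of it Ighm, and all 10 were higher past the limma threshold (median log2 fold change 0.60). B cells also express GIMAP genes. The 12 myeloid markers, of which 10 were tested (7 higher and 2 lower past the limma threshold), summed to 159.6 to 182 FPKM with cisplatin and 124 to 130.5 FPKM in control. The 28 markers of ID8 tumour cells summed to 386 to 392 FPKM with cisplatin and 1971 to 2075 FPKM in control, and 22 of the 23 tested were lower past the limma threshold. Endothelial cells, another source of GIMAP transcripts, were represented by 8 markers that summed to 21.5 to 22.0 FPKM with cisplatin and 15.8 to 16.5 FPKM in control. Most of that was Pecam1, which leukocytes express as well, at 20.6 FPKM on average with cisplatin and 13.4 FPKM in control. Only 2 of the 8 passed the filter. The other tested marker, Tek, a receptor of endothelial cells, was lower, at 2.12 ± 0.358 FPKM in control and 0.536 ± 0.136 FPKM with cisplatin (SD, n = 3 each, log2 fold change -1.81, limma adjusted p = 5.24e-04). The 8 platelet and erythroid markers, of which 5 were tested (1 lower), summed to 73.0 to 85.4 FPKM with cisplatin and 89.6 to 114 FPKM in control. No marker of these lists was at 0 in every library. The part of these cells in the change of the GIMAP genes was not tested.

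The members were then compared with the T-cell identity genes directly, by subtracting the mean log2(FPKM + 0.1) of the 26 genes from each library before the limma fit. On this scale a value of 0 means that a gene changed as the mean of the T-cell genes did, and the median of all genes tested was -0.51. Gimap3, Gimap4, Gimap9 and Gimap6 remained higher, Gimap7 was lower, and Gimap8, Gimap5 and Gimap1 did not pass the threshold. On it 5.24% of the genes tested were higher and 64.1% lower past the same threshold.
Gimap3 had a relative log2 fold change of 0.35 (95% interval 0.26 to 0.44, limma adjusted p = 1.49e-04) and Gimap4 of 0.34 (95% interval 0.26 to 0.43, limma adjusted p = 1.09e-04). Relative to the T-cell mean, Gimap4 stood at 2.92, 2.88 and 2.90 log2 units in the cisplatin libraries and at 2.59, 2.50 and 2.58 in the control libraries. Those of Gimap3 were 2.76, 2.69 and 2.71 with cisplatin and 2.43, 2.33 and 2.36 in control, so neither gene overlapped between the groups.
Gimap9 followed with 0.24 (95% interval 0.12 to 0.35, limma adjusted p = 0.00418). The values of Gimap6 and Gimap7 were small, 0.10 (limma adjusted p = 0.0185) and -0.10 (limma adjusted p = 0.0335), and with 1 library left out they kept their direction but not always the call. Gimap6 had 0.09 (limma adjusted p = 0.0658) without cisplatin replicate 1 and 0.08 (limma adjusted p = 0.0644) without control replicate 2. Gimap7 had -0.10 to -0.08 (limma adjusted p 0.0751 to 0.0851) without any 1 library other than control replicate 2, and -0.12 (limma adjusted p = 0.0183) without that one. Gimap8 had 0.07 (95% interval -0.01 to 0.14), Gimap5 0.02 (-0.09 to 0.13) and Gimap1 0.00 (-0.09 to 0.09), intervals that leave room for small changes in either direction.

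**Figure D2:**
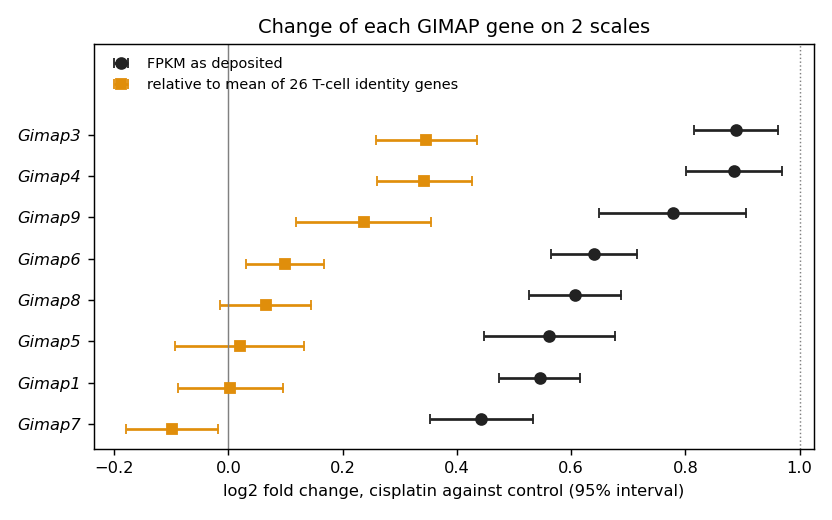
log2 fold change of each GIMAP gene, cisplatin against control, with its 95% interval. Circles use the FPKM as deposited and squares the same values relative to the mean of 26 T-cell identity genes, and the dotted line marks a 2-fold change. All circles lie between 0.44 and 0.89, while the squares run from -0.10 (Gimap7) to 0.35 (Gimap3).

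The same FPKM values can be read as the make-up of the family, which does not depend on how a library is scaled. The shares of a library add up to the whole, so a rise in the share of some members lowers those of others. A lower share is thus not a lower level. Gimap4 made up 36.5% ± 0.0555 (SD, n = 3) of the summed family FPKM with cisplatin and 34.2% ± 0.417 (SD, n = 3) in control, and Gimap3 32.3% ± 0.236 and 30.2% ± 0.607 (SD, n = 3 each). Both shares were higher in all 3 cisplatin libraries than in any control library. The other way round, Gimap6 made up 11.8% with cisplatin and 13.1% in control, and Gimap7 4.77% and 6.06%. The shares of Gimap1 (5.83% and 6.91%), Gimap8 (3.77% and 4.28%) and Gimap5 (1.30% and 1.52%) were likewise lower in every cisplatin library than in any control library. The shares of Gimap9, 3.65% with cisplatin and 3.68% in control, overlapped. An exact permutation test (two-sided) on the shares gave p = 0.1 for 7 of the members, the smallest p that 3 libraries against 3 allow, and p = 1 for Gimap9 (adjusted p = 0.114 and 1 over the 8 members). Such a test cannot pass 0.05 here, so these shares are given as the order of the libraries.

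**Figure D3:**
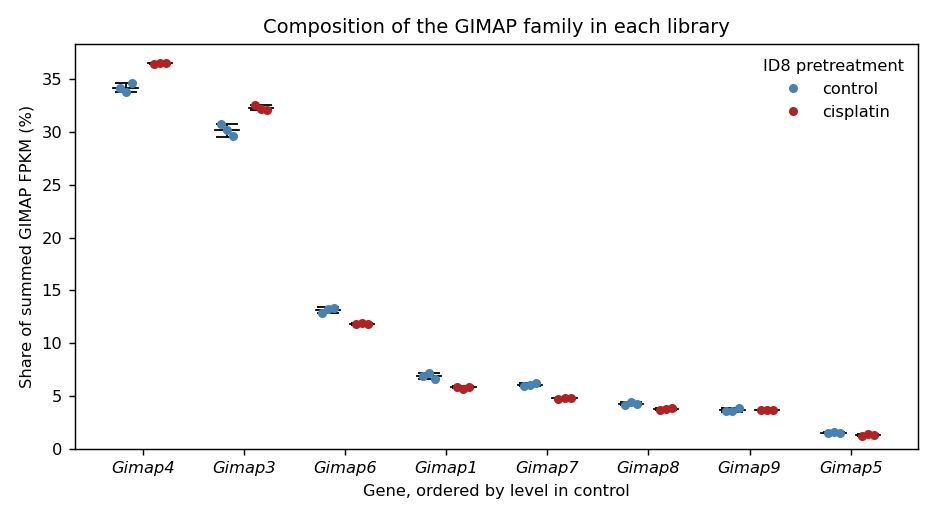
Share of each GIMAP gene in the summed FPKM of the 8 members, in percent, for the 3 control and 3 cisplatin libraries. Points are libraries, and bars and whiskers are the mean and SD. Gimap4 and Gimap3 together make up most of the family, and their cisplatin points lie above, and those of Gimap6, Gimap1, Gimap7, Gimap8 and Gimap5 below, their control points.

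GIMAP transcripts belong to the resting lymphocyte, so genes of the naive and quiescent state were read beside them. Of 19 such genes, 16 were higher and 1 lower past the limma threshold, with a median log2 fold change of 0.54. They included Ms4a4b (0.86) and Tcf7, a transcription factor of naive and memory T cells (0.66). Tob1, an inhibitor of T-cell proliferation, was the gene that fell (-1.08). Relative to the T-cell mean, 6 of the 19 were higher and 6 lower, with a median of 0.00, against 4 higher and 1 lower of the 8 GIMAP genes, with a median of 0.08. On the same scale, 10 of the 26 T-cell identity genes were higher and 7 lower, with a median of 0.06. Among the 10 B-cell markers, 5 were higher and 2 lower, also with a median of 0.06. Of 14 genes of T-cell activation, 13 were tested, and 8 were higher and 3 lower past the limma threshold (median log2 fold change 0.35). Relative to the T-cell mean, none of the 13 was higher and 8 were lower, a share near the 64.1% of all genes tested that were lower on this scale.
The transcripts of proteins that GIMAPs are known to work with were read as well. Among 14 genes of BCL2 family proteins, ATG8-type autophagy proteins and GSK3 kinases, 4 were higher and 3 lower past the limma threshold, with a median log2 fold change of -0.02. These shares are near those of all genes tested, 27.5% higher and 29.0% lower. Bax, a promoter of mitochondrial cell death, rose by 0.63, and Mcl1, a survival protein of the BCL2 family, by 0.46. Bcl2l1, of the same family, was lower (-0.49, limma adjusted p = 8.15e-04). Gabarapl1 fell by 1.57 and Map1lc3a by 1.04, while the log2 fold change of Gabarapl2, the partner of Gimap6, was -0.15 (limma adjusted p = 0.0877). Gsk3b, a kinase that Gimap5 restrains in T cells, had -0.07 (limma adjusted p = 0.304) and Bcl2 0.11 (limma adjusted p = 0.0898). Relative to the T-cell mean, 0 of the 14 were higher and 13 were lower, beside 5.24% higher and 64.1% lower over all genes tested. On that scale Mcl1 had -0.08 (limma adjusted p = 0.0348), Bax 0.09 (limma adjusted p = 0.0936) and Gsk3b -0.61 (limma adjusted p = 9.11e-05).

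**Figure D4:**
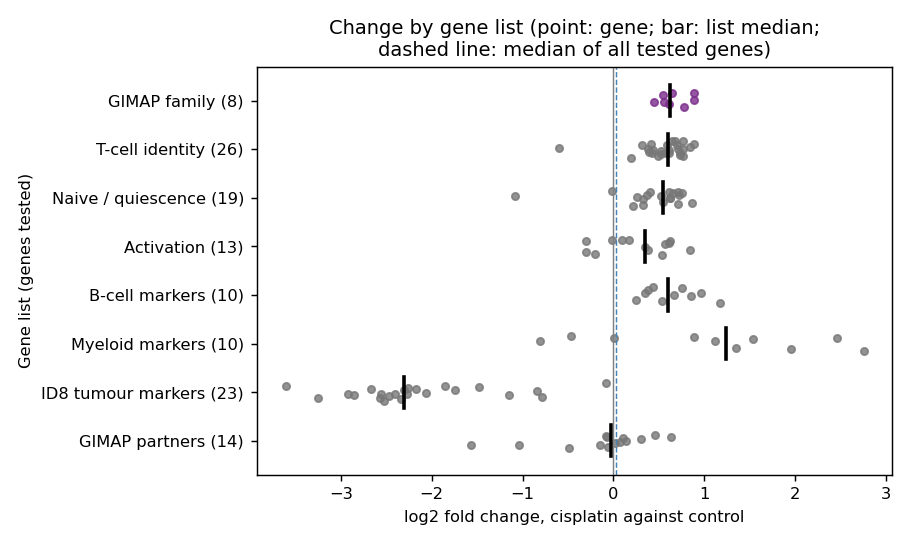
log2 fold change of each tested gene (points) by gene list, cisplatin against control, with the list median as a bar and the median of all tested genes as a dashed line. The GIMAP median (0.62) lies beside those of the T-cell identity (0.60) and naive (0.54) lists, ID8 tumour markers lie far below 0, and GIMAP partner genes scatter around 0.

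The genes whose pattern over the 6 libraries was most like the mean of the family were Tcf7, Pik3cd, Atp1b3, Slfn1 and Rexo2. The measure was the root mean square difference of the centred log2 values, over 7657 protein-coding genes of at least 5 FPKM on average, and it was 0.015 for Tcf7 and 0.017 to 0.023 for the others. Most of this likeness is the difference between the 2 groups. Their log2 fold changes were 0.64 to 0.70, and Pik3cd, the leukocyte subunit of PI3 kinase, had 154, 154 and 155 FPKM with cisplatin and 96.0, 95.6 and 96.3 FPKM in control.

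The neighbours of the family on chromosome 6 were also read. Within 200 kb of the members lay 32 other genes, of which 14 were tested, and 4 of these were higher and 2 lower past the limma threshold (median log2 fold change 0.20). The share higher is near the 27.5% of all genes tested. Of the 4 that were higher, 3 lie among the GIMAP genes. They are Gimap1os (0.38, limma adjusted p = 0.00928) and the neighbouring lincRNA genes Gm44226 (0.74, adjusted p = 0.00539) and 4833403J16Rik (0.87, adjusted p = 0.00616), which lie between Gimap5 and Gimap3 and overlap each other on opposite strands. All 3 were low, with at most 3.74 FPKM in any library. The fourth, Repin1, lies upstream of Gimap8 (0.53, limma adjusted p = 0.0185). Gm28053, the model that spans Gimap7 to Gimap5, had 6.19, 7.05 and 9.33 FPKM with cisplatin and 5.76, 4.11 and 5.83 FPKM in control (log2 fold change 0.51, limma adjusted p = 0.0582), and its reads may belong to the members whose exons it overlaps.
On the other side, beyond Gimap3, the adjoining genes Tmem176b and Tmem176a went the opposite way. They encode membrane proteins known from dendritic cells and other leukocytes. Between the same groups 22 of the 23 tested ID8 tumour markers were lower past the limma threshold. Of the 10 tested myeloid markers, 7 were higher and 2 lower. Which cells of the co-culture the Tmem176a and Tmem176b transcripts came from was not tested. Tmem176b stood at 104 ± 4.04 FPKM in control and 31.4 ± 0.244 FPKM with cisplatin (SD, n = 3 each; log2 fold change -1.72, limma adjusted p = 1.68e-07), and Tmem176a at 33.8 ± 1.24 and 10.7 ± 0.185 FPKM (SD, n = 3 each; log2 fold change -1.65, limma adjusted p = 3.13e-07). The remaining 7 tested genes of the region, all upstream of Gimap8, did not pass the threshold.

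**Figure D5:**
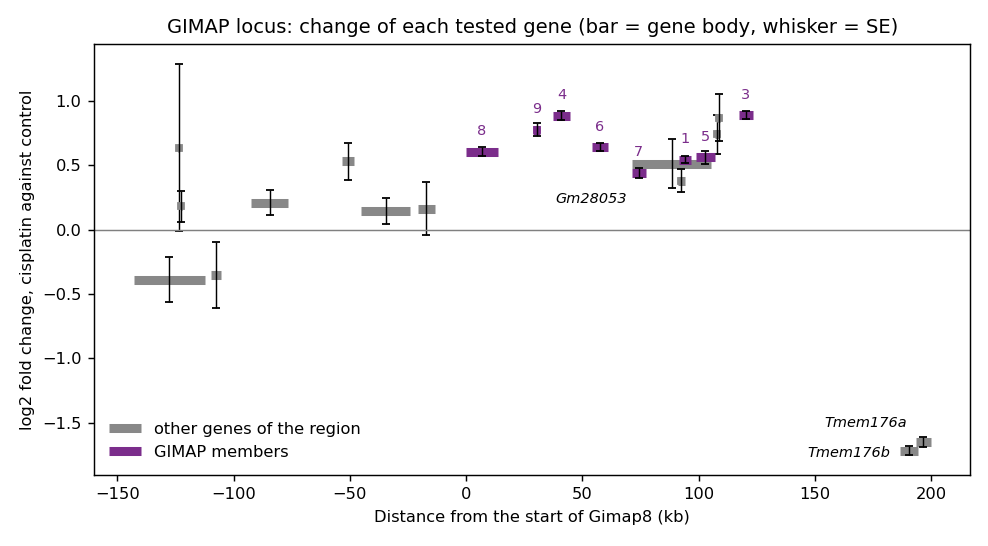
log2 fold change, cisplatin against control, of each tested gene of the GIMAP region against its distance in kb from the start of Gimap8. Thick bars and squares are gene bodies and their midpoints, whiskers are standard errors, and numbers name the GIMAP members. The members all lie above 0.4, and Tmem176a and Tmem176b, beyond the last member, lie below -1.6.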

How the data were processed

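Poly(A) RNA of 6 T-cell libraries was analysed, 3 per group by the sample titles. The authors deposited FPKM values per gene. The submitters' processing notes name fastp, HISAT2 (2.0.5), featureCounts (1.5.0-p3) and the build mm10, and the paper's methods name LifeScope for alignment and counting. Strand and multi-mapping settings are not given in the sources used here. Gene coordinates were the same as in GENCODE M21 (GRCm38) for 98.3% of 54495 shared genes.

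FPKM times gene length came within 0.1 of whole reads in 100% of the values above 0, so reads were rebuilt (30606569 to 32169496 per library). Replicates differed by more than sampling noise (chi-square per degree of freedom 5.36 to 6.44). The main test was limma 3.58.1 (R 4.3.3; lmFit, eBayes with trend) on log2(FPKM + 0.1) over genes averaging at least 0.5 FPKM, with Benjamini-Hochberg adjustment over all of them. A call also needed a 2-fold change. The pseudocount makes the fold changes of low genes too small. The paper's methods use DESeq2 on raw counts, which were not used here, with the same thresholds.

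The members and lists were chosen with earlier results of these data known. The named genes were the members, tested genes within 200 kb of them, genes of the lists and the 5 genes most like the family mean. The fit was first tested on simulated data. Alternatives were other pseudocounts (1 and 0.01), filters, scalings and thresholds, no trend, limma's treat, limma's voom on rebuilt reads (at least 10 in at least 3 libraries), leaving out each library and the replicate number as a block. Centring on B-cell markers was chosen after the data were seen. No further sample columns were present. Python 3.11.15, numpy 2.4.6, pandas 2.3.3, scipy 1.17.1, matplotlib 3.10.9 and, for global alignments of coding sequences, Biopython 1.88 were used.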

Additional observations from a re-analysis of the deposited data

How the results depend on the processing

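All 8 members stayed higher at an adjusted p-value under 0.05 under other pseudocounts, filters and scalings (median of ratios, quantile, TPM), without the trend, with voom on the rebuilt reads (log2 fold changes 0.53 to 0.97) and without any 1 library. Of them 4 were higher once the 26 T-cell genes were used for centring, where Gimap7 turned to -0.10, and 3 (Gimap3, Gimap4 and Gimap9) by limma's treat at a 1.5-fold change, which also makes 3 the number called there. By treat, 594 of the 15874 genes tested were higher and 2035 lower. With no fold minimum 8 members were called. Over all genes 2687 were called (75.7% lower), against 1762 with a pseudocount of 1, 1145 with a mean of at least 5 FPKM and 8963 with no fold minimum. The share lower was 64.6% after quantile normalization and 95.9% after the centring, which moved the median of all genes to -0.51. Quantile normalization moved it to 0.16.

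Relative to the T-cell genes, Gimap3, Gimap4 and Gimap9 were higher in all 16 settings, by 0.25 to 0.42, 0.25 to 0.42 and 0.14 to 0.31. The number of members lower was 0 with no trend, with the replicate number as a block and with centring on the 4 CD3 chains, and 0 to 1 when each library was left out. Where none was lower, Gimap7 missed the threshold. The number higher was 3 to 5 over all settings, 5 with the CD3 chains (Gimap8 added) and 3 with centring on the list's median or on B-cell markers (Gimap6 at 0.06 and 0.00). It was also 3 with no trend (Gimap6 at 0.10, limma adjusted p = 0.0863) and without cisplatin replicate 1 or control replicate 2. Shares of rebuilt reads in place of FPKM, which weight longer genes more, gave differences of 2.72 (Gimap3), -1.54 (Gimap6), -1.13 (Gimap7), -0.66 (Gimap8) and -0.33 (Gimap5) percentage points, with the same sign as in FPKM. The share of Gimap9, whose groups overlap, differed by -0.029 in FPKM, 0.019 in rebuilt reads and 0.081 without control replicate 3.

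Libraries share replicate numbers in the titles, but nothing says that a number marks a mouse or day, and the deviations of same-numbered libraries from their group means correlated at -0.063 to 0.023. With the number as a block, 2662 genes were called and 8 members were higher. For Gimap7 relative to the T-cell genes the adjusted p-value from limma was then 0.0505. Only control replicate 1 correlated best with its own number, and the highest correlation, 0.083, was between cisplatin replicate 2 and control replicate 3.

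Depth does not limit the values of the members, the lowest being 1511 reads. With 3 libraries a group, the exact permutation test of the shares cannot pass 0.05.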
